A study of Mus musculus with 82 samples.

Results

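The entries described here are 10 mouse microRNA (miRNA) names of doubtful standing, on the array as mmu-miR-690_st, mmu-miR-709_st, mmu-miR-720_st, mmu-miR-3473_st, mmu-miR-3473b_st, mmu-miR-5099_st, mmu-miR-5100_st, mmu-miR-5107_st, mmu-miR-1946b_st and mmu-miR-1894-5p_st, out of the 1111 mouse mature miRNA probe sets measured. They are given by name below without the prefix and suffix. The list was selected on measured values: a low level in a synaptic fraction against whole homogenate, or a shift between these fractions with alcohol, among entries of which some have been reported as pieces of transfer RNA or ribosomal RNA. Which contrast chose which entry is not recorded, so the SN against TH values of all 10 entries, in control and in alcohol mice, are a description with no test. The same holds for their shifts with alcohol.

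Tissue came from the extended amygdala, a forebrain region involved in stress, reward and alcohol drinking, of female C57BL/6J mice with an age of 2 months in the labels. All mice were housed singly with bottles available for 24 hours a day over 30 days. Control mice (n = 12) had water in both bottles, and alcohol mice (n = 8) could choose between water and 20% ethanol. Each mouse gave a synaptoneurosome fraction (SN), the pellet of a homogenate passed through filters with pores of 100 and 5 µm and spun at 14000 g for 20 min, and a total homogenate (TH), the 10% of the same homogenate set aside before filtration. SN is a filtered pellet enriched in pinched-off synaptic endings and is not a pure preparation of synapses. Small RNA was hybridized to 40 Affymetrix GeneChip miRNA 3.0 arrays, 20 for each fraction, and all levels are log2 values after robust multi-array averaging (RMA).

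A miRNA is cut from the stem of a hairpin transcript and guides a silencing complex to messenger RNAs, mainly through its seed, bases 2 to 8 of the mature strand. Neurons carry miRNAs and parts of this machinery into dendrites, which is why their amounts in synaptic fractions are studied. A registry name does not by itself show that an RNA is made in this way. miR-720 was withdrawn from the registry as a fragment of a threonine transfer RNA, and the name nevertheless remains on older arrays. Short interspersed elements, the B1 and B2 repeats of rodents, are copied throughout the genome and transcribed within many other RNAs.

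Mature sequences were found in RefSeq (GRCm38.p6) for 6 of the 10 entries and are shown because some of them, or the hairpin around them, carry letters of repeats or transfer RNA. They are written 5′ to 3′ in lower case with the seed in capitals. miR-3473 was matched through a gene synonym to miR-3473a.
miR-690: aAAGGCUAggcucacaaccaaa
miR-3473: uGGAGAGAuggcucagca
miR-3473b: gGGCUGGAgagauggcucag
miR-1946b: gCCGGGCAgugguggcacaugcuuuu
miR-1894-5p: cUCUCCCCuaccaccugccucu
miR-5100: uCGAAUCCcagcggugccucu

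The 6 strands had 6 different seeds, were 18 to 26 bases long and held 45.5% to 65% G and C, with a median of 61.7% against 52.2% over 1679 mature names in the same table. The mature miR-690 lies at chr16:28599940-28599961 on the minus strand within the span of Fgf12, the gene of an intracellular protein of the fibroblast growth factor family. miR-3473a lies at chrX:162874920-162874937 on the minus strand within Syap1, and miR-3473b at chr10:41670774-41670793 on the plus strand within Ccdc162. miR-1946b is at chr9:21613452-21613477 on the minus strand, with no other gene spanning it in the table used. miR-1894-5p is at chr17:35917899-35917920 on the plus strand within Ppp1r10, which encodes a nuclear subunit of protein phosphatase 1, and miR-5100 at chr11:60728698-60728718 on the plus strand within Mief2, which encodes an adaptor of mitochondrial fission. Exon and intron positions were not annotated here.

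miR-3473, miR-3473b and miR-690 share a run of bases. The run gcuggagagauggcucag, 18 bases of miR-3473b, recurs in the hairpin of miR-690 at chr16:28599935-28600043, minus strand, where it is written in capitals.
Mir690 hairpin: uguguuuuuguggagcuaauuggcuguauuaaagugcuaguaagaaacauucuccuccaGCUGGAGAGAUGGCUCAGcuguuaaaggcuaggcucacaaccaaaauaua

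The run occupies bases 60 to 77 of this hairpin of 109 bases and ends 5 bases before mature miR-690, which occupies bases 83 to 104. On either strand it occurs in 5 of 1005 mouse hairpins (Mir690, Mir3473a, Mir3473b, Mir3473c and Mir3473f) and in 44 of 32851 promoter windows of 300 bases (0.134%). It is the opening of the B2 repeat as generally described. The start of miR-1946b resembles the opening of the B1 repeat, and the first bases of miR-5100 are those of the T arm of many transfer RNAs. miR-3473 and miR-3473b have uggagagauggcucag (16 bases) in common, and whether their probes bind each other's target was not tested.

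The arrays showed a neuronal tissue in both fractions. The mean of 6 neuronal miRNAs ranged from 9.22 to 9.93 over the 40 arrays, with miR-124, an abundant neuronal miRNA, near 13.4. In SN, vessel-wall miRNAs were lower, with miR-145 at -2.41 and -2.45 (SN minus TH, log2) in control and alcohol pairs, miR-143 at -2.27 and -2.28 and miR-126-3p at -2.11 and -2.29, each called by limma in both. The lymphocyte miR-150 stood at -3.03 and -3.08. The remaining vessel marker and the other 3 white-cell markers had group means under 2, near the array medians of 0.82 to 1.00. None of 6 neuronal, 3 red-cell and 2 oligodendrocyte miRNAs passed in either group of mice, but both oligodendrocyte miRNAs and 1 of the red-cell miRNAs also had group means under 2, where a difference could hardly be seen. Of 3 astrocyte and microglia miRNAs, miR-146a was higher in SN, by 0.50 and 0.95, and the other 2 had group means under 2.

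In control mice 8 of the 10 entries were lower in SN than in TH, and miR-720 and miR-5100 lay near 0. The plot of levels by mouse shows this as lines that descend from TH to SN. In an extract of a fraction, fewer cells or structures of a type and less of the RNA in each cannot be told apart. The limma fit over 1111 probe sets (each mouse's SN minus TH, Benjamini-Hochberg adjusted p under 0.05) called 69 (6.21%), 40 lower (3.6%) and 29 higher (2.61%), and the 8 were among the 40. Since these values were in view when the entries were picked, nothing is read from that count.

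**Figure D1:**
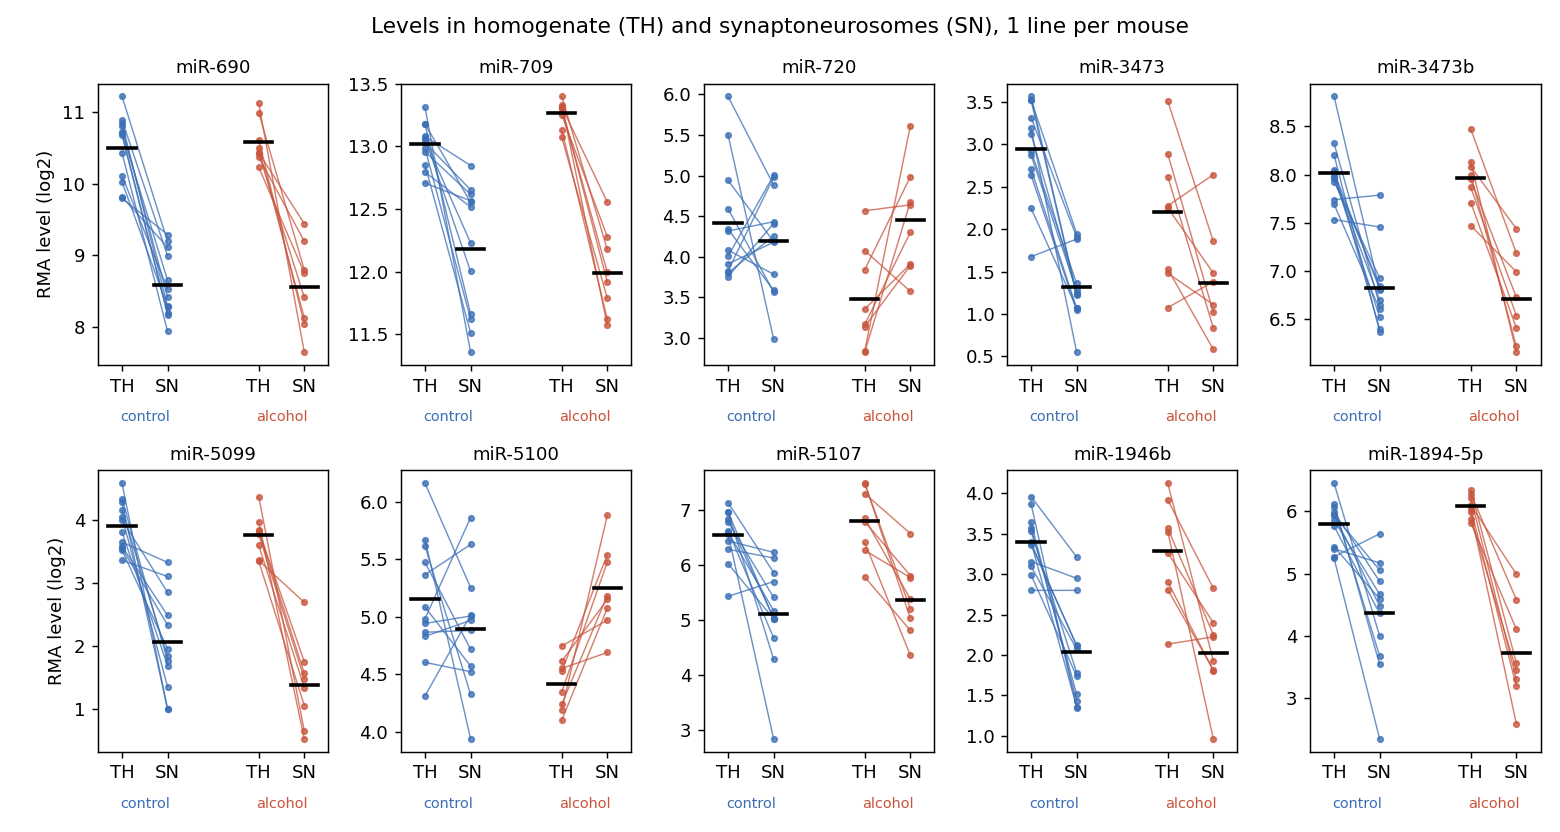
RMA levels (log2, vertical axis, scaled per panel) of the 10 entries in TH and SN, with 1 line per mouse (12 control mice in blue, 8 alcohol mice in red) and group means as black bars. The 8 alcohol lines of miR-690, miR-709, miR-3473b, miR-5099, miR-5107 and miR-1894-5p all descend, and those of miR-5100 all ascend.

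miR-690, which carries the B2-like run in its hairpin and not in its mature strand, is described first, followed by the entries whose mature strand has repeat-like letters. Its control TH levels ran from 9.79 to 11.22 (median 10.69) and its SN levels from 7.94 to 9.29 (median 8.47). The groups did not overlap, and the mean difference was -1.91 ± 0.69 (SD, n = 12), a level 3.77-fold lower in SN. In alcohol mice TH ran from 10.23 to 11.12 (median 10.46) and SN from 7.65 to 9.44 (median 8.58), again without overlap.

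miR-3473b ran from 7.53 to 8.81 (median 7.97) in control TH and from 6.37 to 7.79 (median 6.75) in control SN. The highest SN array, that of control 13, lay among the TH levels, and the mean difference was -1.20 ± 0.64 (SD, n = 12). In alcohol mice TH ran from 7.47 to 8.47 (median 7.97) and SN from 6.16 to 7.44 (median 6.63), with no overlap. miR-3473 was dimmer, at 1.68 to 3.57 (median 3.02) in control TH and 0.55 to 1.95 (median 1.24) in control SN, a mean difference of -1.62 ± 0.72 (SD, n = 12). Its alcohol TH arrays spread from 1.08 to 3.51 (median 2.27) and overlapped the SN arrays, which ran from 0.58 to 2.64 (median 1.25). miR-1946b ran from 2.80 to 3.96 (median 3.39) in control TH and from 1.34 to 3.21 (median 1.93) in control SN, and from 2.13 to 4.13 and 0.96 to 2.82 in alcohol TH and SN. SN levels of miR-3473 lay near the array medians, so the size of its difference is limited by the low end of the scale. The lowest alcohol SN array of miR-1946b, at 0.96, also reached the array medians.

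For the other entries that were low in SN no repeat or transfer RNA likeness is stated here. No mature sequence was found for miR-709, miR-5107 and miR-5099, so likeness was not examined for them. They are not a contrast to the repeat-like entries. miR-709, which has been reported in nuclei of mouse cells, ran from 12.71 to 13.31 (median 13.04) in control TH and from 11.36 to 12.85 (median 12.37) in control SN. Its mean difference was -0.84 ± 0.60 (SD, n = 12), with overlap at the top of the SN group. In alcohol mice TH lay in a narrow band from 13.07 to 13.40 and SN from 11.57 to 12.56, without overlap. The highest value on any array was 13.5, so the TH levels of miR-709 stand close to the top of the scale.

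miR-1894-5p ran from 5.24 to 6.45 (median 5.90) in control TH and from 2.34 to 5.64 (median 4.54) in control SN, a mean difference of -1.42 ± 1.00 (SD, n = 12). In alcohol mice TH ran from 5.82 to 6.35 and SN from 2.59 to 4.99 (median 3.50), so the fractions overlapped in control mice and not in alcohol mice. miR-5107 showed overlap in both, with control TH from 5.43 to 7.14 (median 6.61), control SN from 2.84 to 6.23 (median 5.10), alcohol TH from 5.78 to 7.49 and alcohol SN from 4.36 to 6.57. miR-5099 ran from 3.36 to 4.58 (median 3.90) in control TH and from 0.99 to 3.32 (median 1.89) in control SN, with no overlap and a mean difference of -1.85 ± 1.09 (SD, n = 12). Its alcohol SN arrays, from 0.53 to 2.69, again lay below all alcohol TH arrays, from 3.34 to 4.37, and reached the array medians.

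The alcohol pairs gave the same measure in other mice. There limma called 45 of 1111 probe sets (4.05%), 36 lower (3.24%) and 9 higher (0.81%). Of the 10 entries, 7 were among those called lower and 1 among those called higher. It is not recorded whether these values were in view when the entries were picked, so nothing is read from that count either.

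The mean SN minus TH of miR-690 in alcohol mice was -2.03 ± 0.81 (SD, n = 8) and that of miR-1894-5p was -2.36 ± 0.78 (SD, n = 8), each with SN lower in 8 of 8 pairs. miR-5099 stood at -2.38 ± 0.92 (SD, n = 8), also lower in 8 of 8, with SN levels down to the array medians that limit the size of the difference. miR-709 stood at -1.28 ± 0.31 (SD, n = 8) and miR-3473b at -1.25 ± 0.50 (SD, n = 8), lower in 8 of 8 pairs each.

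miR-5107 stood at -1.43 ± 0.75 (SD, n = 8), lower in 8 of 8 pairs, and miR-1946b at -1.26 ± 0.82 (SD, n = 8), lower in 7 of 8. miR-3473 was the least regular of the 8, at -0.84 ± 0.90 (SD, n = 8) and lower in 6 of 8 pairs, and it was not among the probe sets called. The median over the 10 entries was -1.27 in the alcohol pairs and -1.39 in the control pairs, against -0.00 and 0.03 over all 1111 probe sets.

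**Figure D2:**
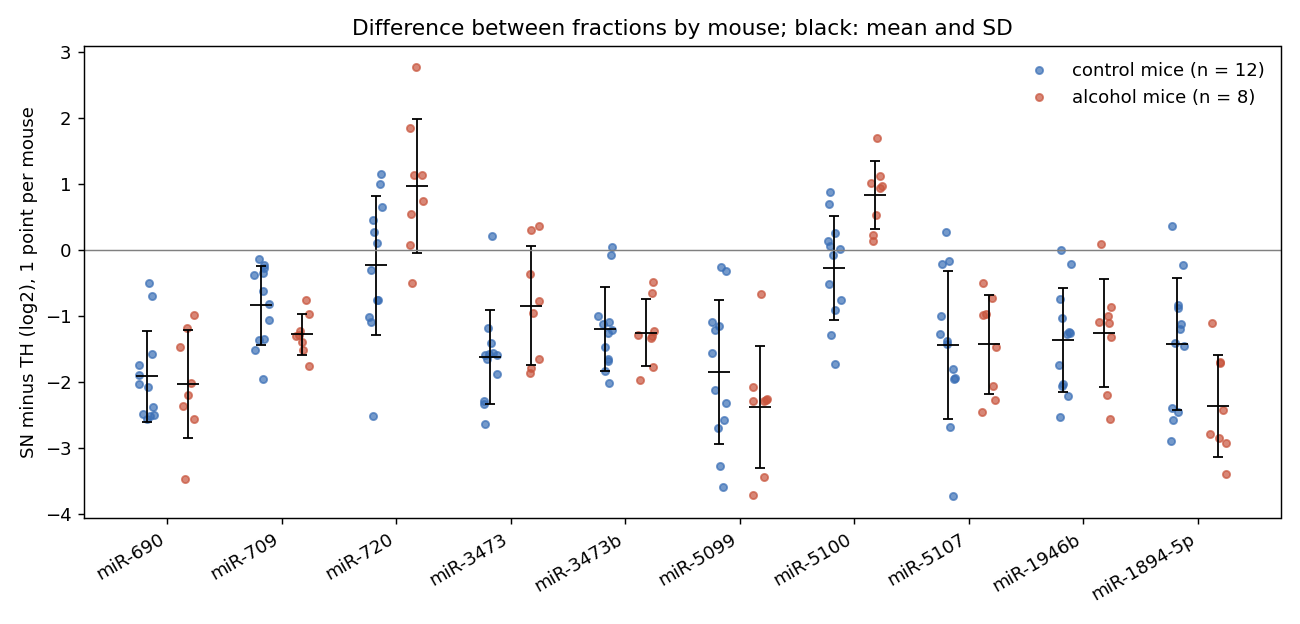
SN minus TH (log2, vertical axis) of each entry, with 1 point per mouse, control mice in blue and alcohol mice in red; black bars give the mean and SD. Nearly all points of 8 entries lie below 0, while miR-720 and miR-5100 lie on both sides of 0 in control mice and mostly above it in alcohol mice.

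The exceptions among those 8 entries came from few mice. In control mice 5 differences were above 0, and they belonged to controls 1, 12 and 13. Control 12 had miR-3473 at 0.21 and miR-1894-5p at 0.37, control 13 had miR-3473b at 0.05 and miR-5107 at 0.27, and control 1 had miR-1946b at 0.00. In alcohol mice 3 differences were above 0, miR-1946b at 0.09 in mouse 1 and miR-3473 at 0.37 in mouse 6 and 0.31 in mouse 8. The median over the 10 entries was -0.15 in control 12, -0.63 in control 1 and -0.87 in control 13, and from -2.17 to -1.10 in the other 9 control mice.

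Vessel-wall miRNAs were as low in the SN of these mice as in that of the others. The mean SN minus TH of miR-126-3p, miR-143 and miR-145 was -2.21 in control 12, -2.27 in control 1 and -2.30 in control 13, within the range of -2.65 to -1.88 of the control mice. Without these 3 mice, a choice made after their values were seen, limma called 71 probe sets in the remaining control pairs. miR-690 then stood at -2.19 and miR-1894-5p at -1.82. These mice had the medians over the entries nearest to 0 among the controls. Larger falls without them follow from that choice, and nothing is read from them.

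miR-720 and miR-5100, which have a history or letters of transfer RNA, differed from the others in direction in the alcohol pairs only. In the control pairs both means lay below 0, close to it. miR-720 ran from 3.75 to 5.97 (median 4.20) in control TH and from 2.99 to 5.00 (median 4.22) in control SN, lower in SN in 6 of 12 pairs with a mean of -0.23 ± 1.05 (SD). In alcohol mice TH ran from 2.83 to 4.57 (median 3.26) and SN from 3.57 to 5.61 (median 4.47). The alcohol pairs had a mean of 0.97 ± 1.02 (SD, n = 8), with SN higher in 7 of 8, and the fractions overlapped.

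miR-5100 ran from 4.31 to 6.16 (median 5.03) in control TH and from 3.94 to 5.86 (median 4.92) in control SN, lower in SN in 6 of 12 pairs with a mean of -0.27 ± 0.79 (SD). In alcohol mice TH ran from 4.10 to 4.75 (median 4.44) and SN from 4.69 to 5.88 (median 5.17). SN was higher in 8 of 8 alcohol pairs, by 0.83 ± 0.51 (SD), and only the top of TH met the bottom of SN. As these shifts may have been in view when both names were picked, they carry no test here.

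**Figure D3:**
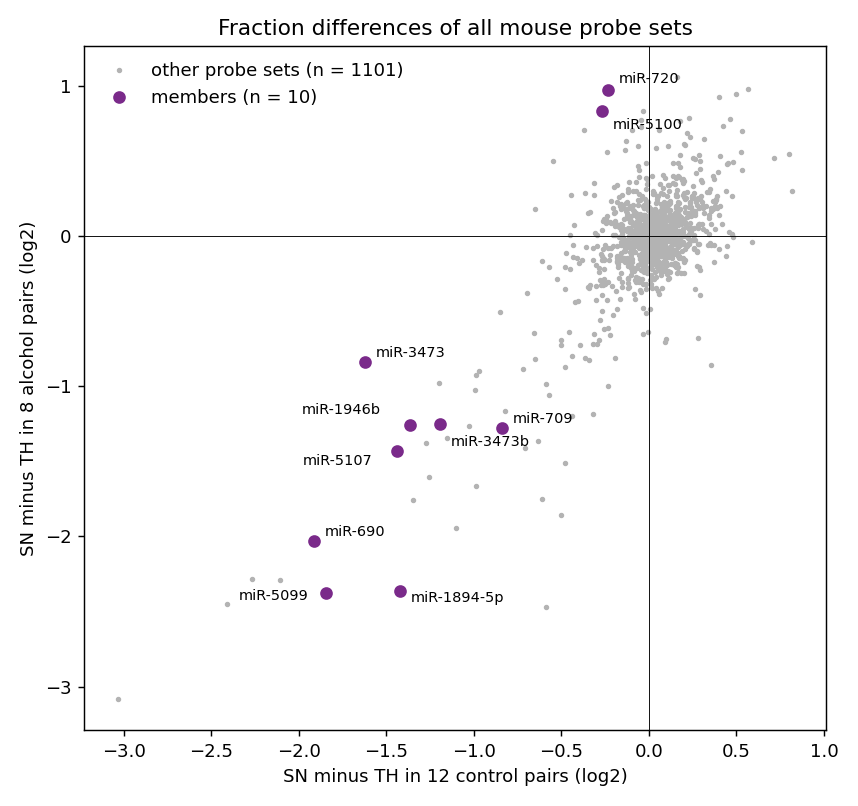
SN minus TH (log2) in 12 control pairs (horizontal axis) and 8 alcohol pairs (vertical axis) for all 1111 mouse probe sets, the 10 entries in purple and the other 1101 in grey. The control and alcohol mice are different animals; 8 entries lie low on both axes, and miR-720 and miR-5100 lie near 0 on the horizontal axis and near 1 on the vertical axis.

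Alcohol drinking was then compared with water within each fraction. limma called 0 of 1111 probe sets in SN, 0 in TH and 0 for the difference between the fractions (0% in each), with 65, 77 and 86 at an unadjusted p under 0.05. It also called 0 of each with trended robust variances and without moderation. Of the 10 entries, 1, 5 and 4 were among those, beside the 65, 77 and 86 of all 1111. Shifts with alcohol may have been in view when the entries were picked, so nothing is read from these counts. The median of the entries was -0.02 in SN and -0.09 in TH, beside -0.02 and 0.01 over all probe sets.

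In TH, miR-5100 was lower in alcohol mice, with a mean difference of -0.74 (95% interval -1.13 to -0.36), with 8 of 8 alcohol arrays below the control median. miR-720 was also lower, at -0.94 (-1.54 to -0.35), with 7 of 8 below it. In SN both lay above the control mean, miR-5100 by 0.35 (-0.07 to 0.78) and miR-720 by 0.26 (-0.30 to 0.82). SN minus TH was higher in alcohol than in control mice by 1.10 for miR-5100 (0.49 to 1.71) and by 1.20 for miR-720 (0.30 to 2.10). These are descriptions of a shift for which both may have been picked, and neither was called among the 1111.

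Of the other entries in TH, miR-709 stood at 0.25 (SE 0.08), miR-1894-5p at 0.29 (SE 0.14) and miR-3473 at -0.74 (SE 0.28) in limma's fit. None of the 8 alcohol TH arrays lay below the control median of miR-709, and 7 of 8 did so for miR-3473. In SN, miR-5099 stood at -0.67 (SE 0.31) and miR-1894-5p at -0.65 (SE 0.35). Shifts of these entries may also have been in view when they were picked. Their values are descriptions, and none was called. miR-690, miR-3473b and miR-1946b lay within 0.12 of 0 in both fractions, with 95% intervals that reached at most 0.55 on either side.

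For the change in SN minus TH, miR-3473 stood at 0.78 (SE 0.33), miR-1894-5p at -0.94 (SE 0.39), miR-5099 at -0.53 (SE 0.43) and miR-709 at -0.44 (SE 0.22). Differences between fractions that looked unlike in control and alcohol mice, such as those of miR-1894-5p, are likewise a description. None of these changes was called, and nothing is read from them. The 3 comparisons share arrays, and their values are not independent of each other.

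**Figure D4:**
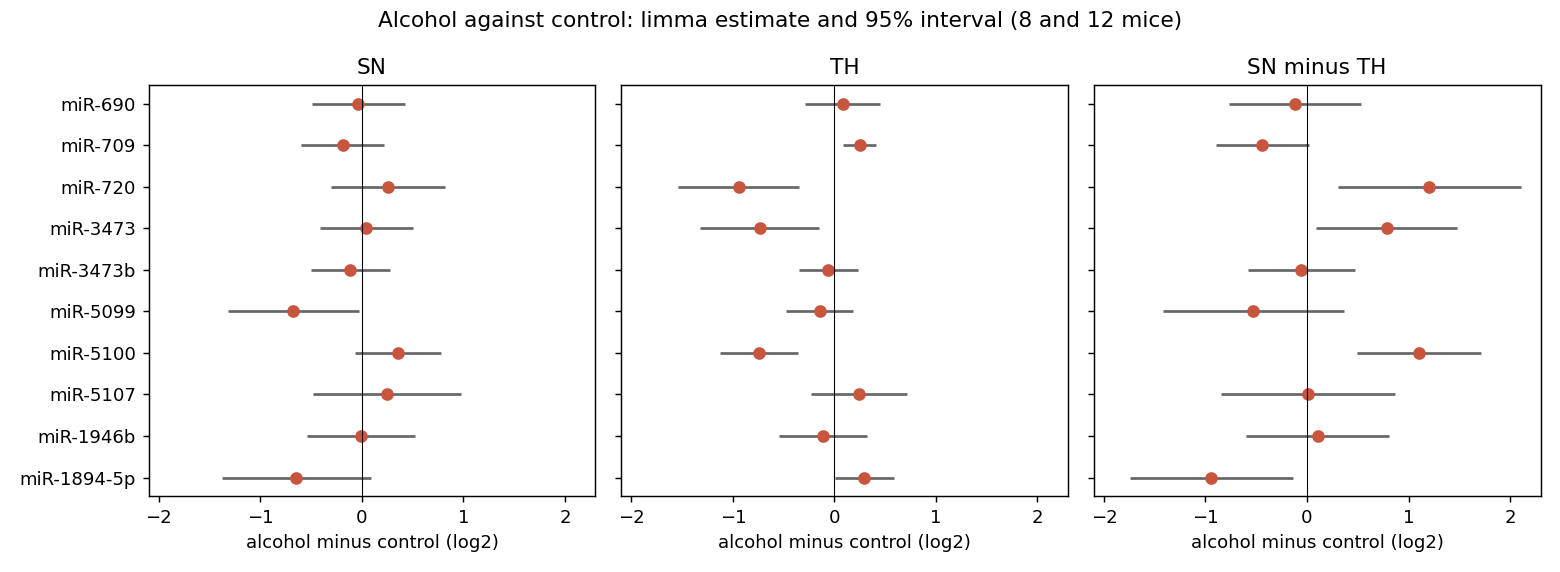
Alcohol minus control (log2, horizontal axis) for each entry in SN, in TH and for SN minus TH, as limma estimates with 95% intervals from 8 alcohol and 12 control mice. miR-5100 and miR-720 lie left of 0 in TH and right of 0 for SN minus TH; no interval shown belongs to a call after adjustment over 1111 probe sets.

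Within SN some of the entries varied together from mouse to mouse. Over the 20 SN arrays, after subtracting each treatment's mean, Pearson r was above 0 in 37 of the 45 pairs of entries, with a median of 0.39. The median was 0.02 over 30876 pairs of 249 probe sets with a mean level over 4. The entries were picked on values of these arrays and some lay below that level, so both medians come from unlike sets. By a permutation test within treatments (two-sided, 100000 reorderings, adjusted over the 45 pairs), 8 pairs passed, all positive. Spearman's rho also gave 8 of the 45. The test was not run over the 30876 pairs, so no share of passing pairs stands beside this count. miR-720, miR-3473, miR-5099 and miR-5100 were in none of the 8 pairs that passed by Pearson's r, and the lowest r was -0.29, between miR-5100 and miR-5107. Over the 20 TH arrays the median r was 0.01 and 0 of 45 pairs passed by either measure, and the difference between the fractions in r was not tested.

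miR-709 was in 5 of the 8 pairs. It went with miR-5107 at r = 0.82 (rho 0.86, permutation p 2e-05, adjusted 0.00045) and r = 0.79 without the 2 arrays farthest from its median. With miR-1894-5p it had r = 0.81 (rho 0.83, permutation p 1e-05, the smallest that the test can give, adjusted 0.00045) and r = 0.83 without the 2 farthest. Within the treatments miR-709 and miR-5107 had r of 0.85 over the control SN arrays and 0.75 over the alcohol SN arrays. In TH the same pair stood at 0.58 (rho 0.63, permutation p 0.00578, adjusted 0.26) and miR-709 with miR-1894-5p at 0.55 (rho 0.46, permutation p 0.0261, adjusted 0.279).

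The other pairs that passed in SN were miR-709 with miR-1946b (r 0.71), miR-3473b (r 0.65) and miR-690 (r 0.65), miR-5107 with miR-1946b (r 0.62) and miR-3473b (r 0.61), and miR-3473b with miR-1946b (r 0.62). Their permutation p ran from 0.00084 to 0.00605, adjusted 0.0116 to 0.034, and r without the 2 farthest arrays ran from 0.44 to 0.72. The last named did not pass by Spearman's rho (0.50, adjusted permutation p 0.0853). miR-720 with miR-5100 had r = 0.50 in SN (adjusted permutation p 0.101) and r = 0.55 in TH (adjusted permutation p 0.279, r = 0.30 without the 2 farthest).

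The number of passing pairs moved with the mice that were included. Controls 1, 12 and 13 had SN arrays among the highest for several entries. Leaving them out was a choice made after their values were seen, and it narrows the spread and leaves 17 arrays. Fewer passing pairs can follow from that choice, so nothing is read from the fall. Without these mice, 4 of 45 pairs passed by the permutation test and the median r was 0.26. Those 4 were miR-709 with miR-5107 (r 0.78), miR-1894-5p (r 0.76) and miR-3473b (r 0.64), and miR-3473b with miR-5107 (r 0.66). Without control 12 alone, or without alcohol mouse 2 alone, 5 pairs passed, and without alcohol mouse 4 the count was 13.

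The mean of the 3 vessel-wall miRNAs was set against the entries in the same way. Across the 20 SN arrays r ran from -0.21 to 0.41 and 0 of 10 entries passed (permutation test, adjusted p 0.77 for each). Across TH arrays 0 of 10 passed, with miR-709 at r = -0.53 (rho -0.52, permutation p 0.0197, adjusted 0.135) and miR-720 at 0.51 (rho 0.52, permutation p 0.027, adjusted 0.135). Low vessel-wall miRNAs and low levels of these entries were found on the same SN arrays, and a relation between them across mice was not detectable with 20 arrays.

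**Figure D5:**
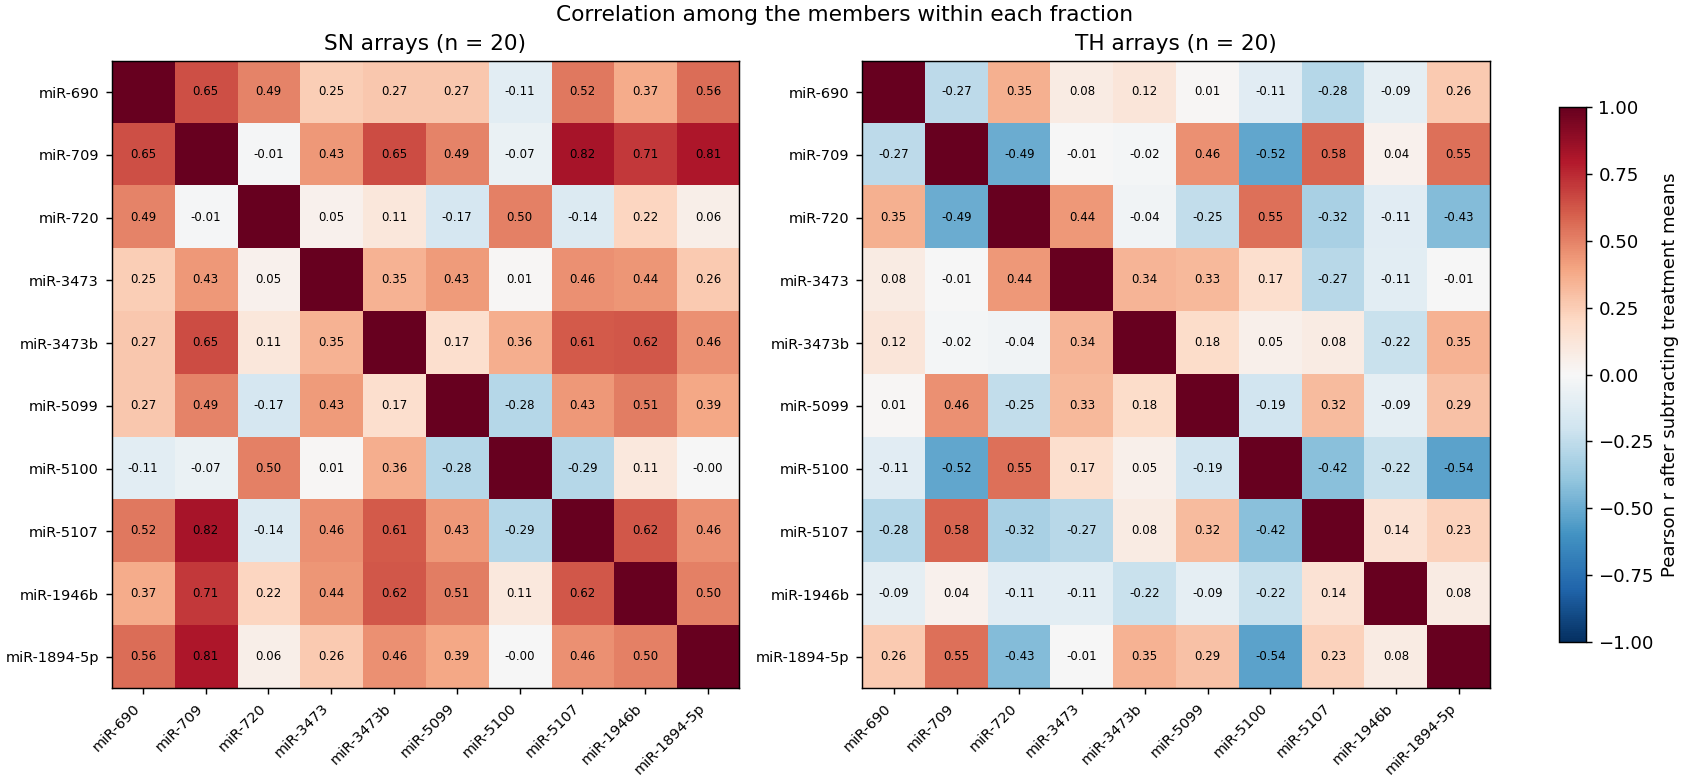
Pearson r between the 10 entries over the 20 SN arrays (left) and the 20 TH arrays (right) after subtracting treatment means, from blue (-1) to red (1). In SN, miR-709 with miR-5107 and miR-1894-5p have the deepest red (0.82 and 0.81). Most values of miR-720 and miR-5100 with the other entries are pale or blue, but miR-720 with miR-690 stands at 0.49 and miR-5100 with miR-3473b at 0.36. Within treatments, miR-720 with miR-690 had r of 0.09 over the control SN arrays and 0.94 over the alcohol SN arrays (not drawn). The TH square is mixed in sign.

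Outside the set, the probe set most like each entry was taken as that of highest r over all 40 arrays after subtracting the 4 group means, among 242 others with a mean level over 4. miR-1196 was the nearest to both miR-709 (r 0.90) and miR-1894-5p (r 0.82). It fell in SN in limma's test, by 1.10 (adjusted p 0.00779) in control pairs and by 1.95 (adjusted p 4.96e-05) in alcohol pairs. miR-1195, the nearest to miR-5099 (r 0.55), fell by 1.35 (adjusted p 0.00494) and 1.76 (adjusted p 0.000116).

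For miR-5107 the nearest was miR-705 (r 0.80), at -0.40 and -0.43 in control and alcohol pairs without passing. For miR-690 it was miR-5105 (r 0.66) and for miR-3473b miR-5126 (r 0.64), and neither of these passed in either group of mice. miR-1946b was nearest to miR-669c (r 0.54), miR-3473 to miR-129-2-3p (r 0.43), miR-5100 to miR-434-5p (r 0.42) and miR-720 to miR-677-star (r 0.36). Of these 4 only miR-677-star fell in SN, by 0.57 (adjusted p 0.00272) and 1.06 (adjusted p 0.00207) in limma's test, opposite in sign to miR-720 in alcohol mice. Each r of a nearest probe set is the highest of 242 and was not tested, so a low one need not mark a likeness.

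Relatives by name followed their entries in part. miR-1946a was lower in SN by limma's test in both groups of mice, at -1.03 (adjusted p 0.0402) and -1.26 (adjusted p 0.0152), close to miR-1946b at -1.36 and -1.26. miR-1894-3p, cut from the other arm of the hairpin of miR-1894-5p, stood at -0.53 (adjusted p 0.0492) and -0.29 (adjusted p 0.666). Both arms of a hairpin arise from 1 precursor, and here the 5p strand differed more between fractions in each group of mice. That contrast was not tested. miR-1894-3p was much dimmer than miR-1894-5p in TH, and its SN arrays reached down to the array medians. It had little room to fall, so its smaller differences do not show that the arms differ. miR-3473c stood at 0.21 and -0.09 and miR-3473d at 0.00 and -0.49, none of them called, while both lay near the array medians.

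Most other entries with late or neighbouring numbers were not called between fractions, although the 10 described here had been picked out of the same ranges. Of 217 other non-star probe sets numbered as late as these entries, 12 were called lower in control pairs (0 higher) and 8 lower in alcohol pairs (1 higher). Of 29 others numbered near miR-690 to miR-720, 1 was called lower in each. Over all 1111 probe sets, 3.6% were called lower in control pairs and 3.24% in alcohol pairs. Only 23 of the 217 and 4 of the 29 had a mean level over 4 in control TH. The medians of these lists in control TH were 0.68 and 0.66, so most of their probe sets had little room to fall. Among the remaining 523 non-star probe sets 11 were called lower and 22 higher in control pairs, and 14 and 7 in alcohol pairs. The highest in level of the first 2 lists, miR-5126, miR-3960, miR-5105, miR-708, miR-700 and miR-705, ranged from -0.40 to 0.23 in control pairs, and 0 of these 6 passed in either group.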

How the data were processed

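The deposited values are log2 levels after RMA, with oligo and limma also named, per the submitters' processing notes without versions. The arrays carry miRBase release 17, per the labels, and no hybridization batch entered the fits. The table holds 1111 mouse probe sets, 332 of them star strands, on 40 arrays, with no detection calls or counts, so the number of arrays limits the precision. Names are those of the array, and no probe set was filtered out.

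SN minus TH was fitted per mouse, and alcohol against control per fraction without a block, in R 4.3.3 with limma 3.58.1 (lmFit, eBayes, Benjamini-Hochberg over 1111 probe sets, adjusted p under 0.05). P-values measure the spread between mice. SN and TH pair by title number because both came from 1 homogenate: over 249 probe sets the same mouse's deviations had a median r of 0.13 in control and 0.19 in alcohol mice, against -0.03 and -0.02 between different mice. Single mice ran from -0.11 to 0.57 in control (7 of 12 over 0.1) and from -0.24 to 0.42 in alcohol mice (7 of 8 over 0.1). Numbers do not pair control with alcohol mice (median r -0.08 in SN, -0.22 in TH). Correlations and figures used Python 3.11.15, numpy 2.4.6, scipy 1.17.1 and matplotlib 3.10.9. All 10 entries are named in every comparison, with relatives by number, the nearest other probe set, the 3 highest of each list of other entries and the lowest of the vessel and white-cell markers. The entries, lists and markers were chosen with earlier results of these data known. Messenger RNA arrays were not used here.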

Additional observations from a re-analysis of the deposited data

How the results depend on the processing

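Alternatives were other normalizations (quantile, centring on the array median or on the probe sets of highest level), a level filter, other variance models, array weights, a replicate block and leaving out each mouse. The count called between fractions was 69 in control pairs and moved to 37 with trended robust variances and to 42 to 68 when 1 control was left out (42 without control 2, 43 without control 3). In alcohol pairs it was 45, 27 without moderation and 39 to 53 with a mouse left out. Without the pairing (no replicate block) the counts were 75 and 42.

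With the same-number replicate block, which the labels do not support across treatments, alcohol against control gave 0 calls in SN, in TH and for their difference. In TH, leaving out a mouse gave 0 to 1 (1 without control 13), and leaving out controls 1, 12 and 13 gave 1. Pairs of entries correlated in SN numbered 8, 5 to 13 with a mouse left out and 4 without controls 1, 12 and 13; in TH they stayed at 0.

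Of 425 values of single entries under the other settings, 402 kept sign and call, 3 lost the call and 20 changed sign; with a mouse left out, 764 of 800 kept both and 36 changed sign. The 3 lost calls were of SN against TH values that are given here without a test.

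All sign changes were of alcohol comparisons near 0 that were not called. In SN, miR-690 became 0.00327 (quantile), 0.015 (highest level), 0.029 (block) and 0.17 (without the 3 controls); miR-1946b 0.096 (quantile), 0.00561 (array median), 0.039 (highest level), 0.15 (block) and 0.31 (without the 3 controls); and miR-3473b 0.14 (block) and 0.039 (without the 3 controls). In TH, miR-690 became -0.00215 (quantile) and miR-1946b 0.013 (block). For the difference between fractions, miR-690 became 0.00542 (quantile) and 0.16 (without the 3 controls), miR-3473b 0.050 (quantile), 0.049 (highest level), 0.32 (block) and 0.22 (without the 3 controls), and miR-5107 -0.011 (block). With a mouse left out, values in SN ranged from -0.16 to 0.095 for miR-690, -0.14 to 0.16 for miR-3473 and -0.12 to 0.14 for miR-1946b. In TH they ranged from -0.13 to 0.014 for miR-3473b and -0.24 to 0.047 for miR-1946b, and for the difference from -0.27 to 0.088 for miR-690, -0.17 to 0.057 for miR-3473b, -0.20 to 0.17 for miR-5107 and -0.086 to 0.29 for miR-1946b. The cause was not tested. SN levels that reach the array medians limit the differences of miR-3473 and miR-5099. In alcohol mice the lowest SN array of miR-1946b reached them too.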
